A study of Mus musculus with 15 samples.

Results

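The transcripts of 9 cell surface proteins that antibodies bind or that mark the myeloma cell surface were followed across 5 mouse myeloma cell lines: Sdc1, Cd38, Slamf7, Gprc5d, Fcrl5, Cd52, Cd93, Cd28 and Epcam. They were taken by name from an expression table of 32434 entries, and all 9 names were found once each. The lines, IL6Myc-1 to IL6Myc-5, share the genotype IL6Myc and were derived from mice of that genotype, which the series describes as an immunocompetent model of aggressive multiple myeloma. Each line is a group of 3 libraries of total RNA, 15 in all, and the series calls these 3 technical replicates. No treatment, time, age, strain or transgene promoter is stated for any line. Whether the replicates of a line were separate cultures, extractions or library preparations is not stated, so each line is treated as 1 biological unit. No normal plasma cell or parental control is among the samples. The p-values below are set against variation among repeat libraries of the same line, which says nothing of variation among tumours or mice. In bulk RNA of this kind, fewer cells carrying a transcript and less of it in each cell cannot be told apart.

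Myeloma is a cancer of plasma cells, the antibody-secreting end stage of the B cell lineage. Plasma cells lose many B cell surface proteins and gain others, among them the heparan sulfate proteoglycan syndecan-1 (CD138), the NAD-consuming ectoenzyme CD38 and the SLAM family receptor SLAMF7. Antibodies against human CD38 and SLAMF7 are used to treat myeloma, and T cell-engaging antibodies have been built against the orphan receptor GPRC5D and the Fc receptor-like protein FCRL5. CD52 is a short glycoprotein held in the membrane by a lipid anchor and is the target of alemtuzumab, an antibody against lymphocytes. CD28, best known as the costimulatory receptor of T cells, is also found on plasma cells and myeloma cells, where it binds CD80 and CD86. CD93 is a C-type lectin domain receptor of endothelial and myeloid cells that is also found on long-lived plasma cells, and EpCAM is an adhesion molecule best known from epithelia. What was measured here is mouse RNA, so neither protein on the cell surface nor binding of any antibody was measured.

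The sequence just before the gene start was examined for the members because 2 of them, Gprc5d and Fcrl5, were at or near 0 in every line while the other 7 were expressed. RefSeq promoter windows of the mouse build GRCm38.p6 had an entry for 6 of the 9 members, and Cd28, Cd52 and Cd93 were not among them. The windows hold the bases upstream of the first base covered by any annotated exon, and those of Sdc1 and Cd38 are left out because exons cover them. The 4 windows below pair a silent and a nearly silent member with 2 that were expressed in every line, each written 5′ to 3′ on the strand of its gene, with capitals marking a match to one of 3 short core promoter motifs on either strand. The windows are Gprc5d, chr6:135118284-135118533, minus strand; Fcrl5, chr3:87435532-87435772, plus strand; Slamf7, chr1:171649008-171649249, minus strand; and Epcam, chr17:87635729-87635978, plus strand.
Gprc5d: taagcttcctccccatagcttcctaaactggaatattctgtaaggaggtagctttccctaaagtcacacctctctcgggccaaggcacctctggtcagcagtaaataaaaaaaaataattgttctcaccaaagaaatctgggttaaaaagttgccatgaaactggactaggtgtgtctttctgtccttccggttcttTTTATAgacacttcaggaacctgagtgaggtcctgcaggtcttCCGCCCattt
Fcrl5: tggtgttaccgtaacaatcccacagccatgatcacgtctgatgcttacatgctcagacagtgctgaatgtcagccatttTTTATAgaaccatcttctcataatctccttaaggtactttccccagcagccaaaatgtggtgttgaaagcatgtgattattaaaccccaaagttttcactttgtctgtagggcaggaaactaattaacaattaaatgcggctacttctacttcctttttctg
Slamf7: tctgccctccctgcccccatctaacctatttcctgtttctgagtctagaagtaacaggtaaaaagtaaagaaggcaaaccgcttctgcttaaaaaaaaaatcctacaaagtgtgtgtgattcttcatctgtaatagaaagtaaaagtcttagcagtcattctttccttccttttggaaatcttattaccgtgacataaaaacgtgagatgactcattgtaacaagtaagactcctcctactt
Epcam: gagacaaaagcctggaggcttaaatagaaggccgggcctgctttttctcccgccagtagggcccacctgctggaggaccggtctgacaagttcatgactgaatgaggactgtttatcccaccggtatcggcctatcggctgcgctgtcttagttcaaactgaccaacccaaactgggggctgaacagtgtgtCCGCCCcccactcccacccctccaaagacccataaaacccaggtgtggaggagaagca

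The motifs searched on both strands were the GC box GGGCGG, the TATA box TATAAA and the CCAAT box CCAAT, none of which overlapped another in these windows. The Gprc5d window held 1 GC box and 1 TATA box, both as the reverse complement. The Fcrl5 window held 1 TATA box, also as the reverse complement, the Epcam window held 1 GC box as the reverse complement, and the Slamf7 window held no match. Among 32851 RefSeq promoter windows of 250 bases, 32.7% held the GC box, 12.4% the TATA box and 33.8% the CCAAT box. The G and C content was 44.0% for Gprc5d, 40.2% for Fcrl5, 37.6% for Slamf7 and 56.4% for Epcam, beside a median of 52.4% over all windows of 250 bases. Gprc5d, Fcrl5 and Slamf7 each had 3 CpG dinucleotides and Epcam had 8. The median over all windows was 6 at 250 bases, and 5 at 241 and at 242 bases, the lengths for Fcrl5 and Slamf7. The windows of all genes were cut at a fixed length and may hold exon bases, unlike those of the members. The expressed Slamf7 had the window poorest in G and C of the 4. Whether these sequences bear on the levels of the members was not tested.

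Levels are given as CPM, the share of a library's estimated counts scaled to 1e6, after scaling by TMM, a method that equalises libraries on the bulk of their genes. The libraries held between 19068543 and 41165599 estimated counts. The plasma cell label was checked first on genes of plasma cell identity. The transcription factors Xbp1, Irf4 and Prdm1, which drive and maintain the plasma cell programme, lay at 1571 to 1902, 963 to 1199 and 167 to 196 CPM as line means, and none of the 3 differed by 1 log2 unit or more between lines, the size needed for a call. Jchain, which joins immunoglobulin monomers, lay between 4978 and 10591 CPM and was called. Of the 10 genes of the plasma cell list 6, or 60.0%, were called, against 32.1% of all genes tested. The widest was Derl3, a factor of protein disposal from the endoplasmic reticulum, at 57.1 ± 2.80 CPM in IL6Myc-1 and 344 ± 6.85 in IL6Myc-2 (SD, n = 3). The immunoglobulin genes Igkc and Igha were called as well, both highest in IL6Myc-2, at 53605 ± 521 and 41531 ± 817 CPM.

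Of the 9 members, 7 passed the filter on low values, which asked for at least 1 CPM in at least 3 libraries, as did 11773 genes in all. A gene is called here when the edgeR quasi-likelihood F-test over the 5 lines gives a Benjamini-Hochberg adjusted p under 0.05 and its highest and lowest line differ by at least 1 log2 unit. By that rule 6 of the 7 members tested were called, Cd38 being the exception, against 32.1% of all genes tested. At any size of difference all 7 had an adjusted p under 0.05, but so did 91.7% of all genes, so the size of a difference carries more information here than its p. The median distance between highest and lowest line was 1.85 log2 units over the 7 members and 0.70 over all genes tested. The 7 members gave 70 comparisons between 2 lines, of which 23, or 32.9%, were called, against 13.3% of such comparisons over all genes. The 3 libraries of one line lay wholly above those of the other in 68 of the 70, against 64.7% over all genes. The members were chosen with earlier results of these data known. These contrasts with all genes therefore cannot show that such antigens vary more than other genes.

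**Figure D1:**
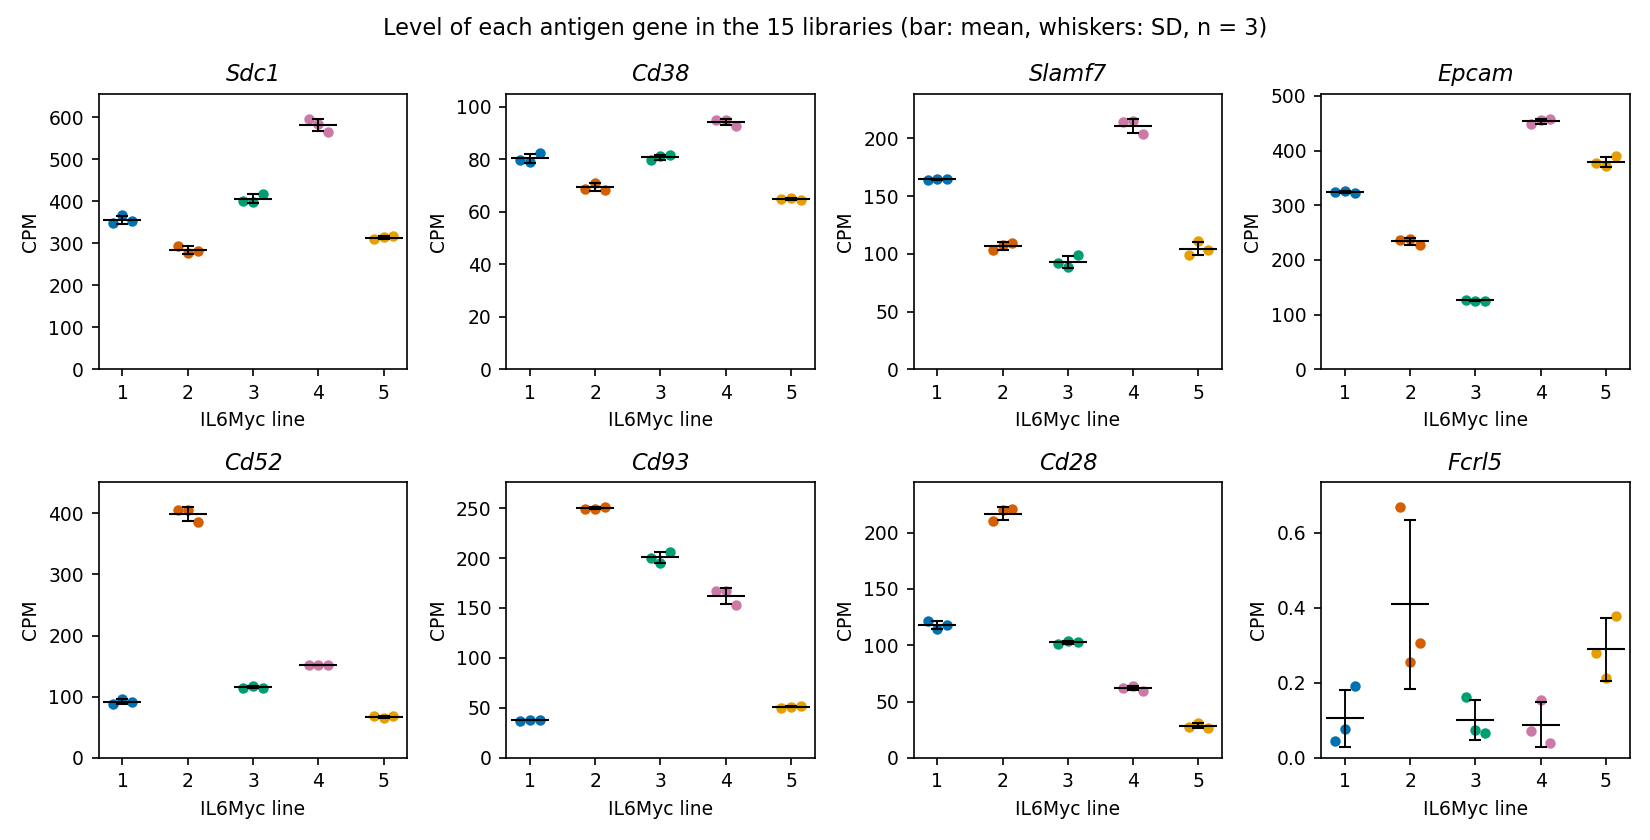
Levels of 8 members in CPM (linear axis from 0, a separate scale for each gene) in each of the 3 libraries of the 5 lines. Points are libraries, bars their mean and whiskers the SD. The 3 points of a line lie close together beside the distance between highest and lowest line for every member shown except Fcrl5. That gene stays below 0.7 CPM. Points of IL6Myc-1 and IL6Myc-3 overlap for Cd38, and those of IL6Myc-2 and IL6Myc-5 for Slamf7. Gprc5d had 0 counts throughout and is not drawn.

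Sdc1 encodes syndecan-1, the standard surface marker of plasma cells. Its levels were 347, 367 and 352 CPM in the 3 libraries of IL6Myc-1, 294, 276 and 282 in IL6Myc-2, 401, 398 and 418 in IL6Myc-3, 595, 584 and 565 in IL6Myc-4, and 310.1, 314 and 316 in IL6Myc-5. IL6Myc-4 stood highest and IL6Myc-2 lowest, and no library of one line fell within the range of another. The means ran from 582 ± 15.1 CPM in IL6Myc-4 (SD, n = 3) through 406 ± 10.6 in IL6Myc-3, 355 ± 10.3 in IL6Myc-1 and 313 ± 3.15 in IL6Myc-5 to 284 ± 9.07 in IL6Myc-2. IL6Myc-4 was above IL6Myc-2 by 1.03 ± 0.036 log2 units (standard error; edgeR adjusted p = 3.42e-13), a 2.05-fold difference, and this was the only pair of lines called for Sdc1. The 4 steps between neighbouring lines in this order were between 0.14 and 0.52 log2 units, each past the adjusted p and none called. Among all genes tested, 68.3% had a smaller distance between highest and lowest line.

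Cd38, the ectoenzyme that daratumumab recognises in human cells, was the steadiest expressed member. It lay at 79.6, 79.0 and 82.2 CPM in IL6Myc-1, 68.7, 71.0 and 68.1 in IL6Myc-2, 79.7, 81.0 and 81.5 in IL6Myc-3, 94.9, 94.9 and 92.8 in IL6Myc-4, and 64.9, 65.3 and 64.5 in IL6Myc-5. Only the libraries of IL6Myc-1 and IL6Myc-3 overlapped. The highest line, IL6Myc-4 with 94.2 ± 1.23 CPM, was above the lowest, IL6Myc-5 with 64.9 ± 0.385, by 0.54 ± 0.035 log2 units (edgeR adjusted p = 1.3e-09), or 1.45-fold, and no pair of lines was called. IL6Myc-3 and IL6Myc-1 differed by 0.01 ± 0.034 log2 units (edgeR adjusted p = 0.843), within the spread of the replicates. Of all genes tested, 35.5% had a smaller distance between lines.

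Slamf7, the receptor recognised in human cells by elotuzumab, shared its highest line with Sdc1 and Cd38. Its levels were 164, 165 and 165 CPM in IL6Myc-1, 103, 107 and 109 in IL6Myc-2, 92.0, 88.4 and 98.8 in IL6Myc-3, 214, 215 and 204 in IL6Myc-4, and 99.3, 111 and 103 in IL6Myc-5. IL6Myc-4 and IL6Myc-1 stood above the other 3 lines, and the libraries of IL6Myc-2 and IL6Myc-5 overlapped. IL6Myc-4, with 211 ± 6.17 CPM, was above IL6Myc-3, with 93.1 ± 5.32, by 1.18 ± 0.048 log2 units (edgeR adjusted p = 3.54e-12), or 2.27-fold. The other pair called was IL6Myc-4 above IL6Myc-5 by 1.01 log2 units, which fell to 0.98 and under the size threshold without the first replicate of IL6Myc-5. IL6Myc-2 and IL6Myc-5 differed by 0.03 ± 0.049 log2 units (edgeR adjusted p = 0.65). The order at the bottom depends on scaling: with library totals and no TMM the IL6Myc-2 minus IL6Myc-3 difference of Slamf7 went from 0.19 to -0.12, and the IL6Myc-2 minus IL6Myc-5 difference of Cd38 from 0.09 to -0.12, which makes IL6Myc-2 the lowest line for both. Dropping TMM rescales all genes of a library alike, and it moved the median gene of IL6Myc-2 by -0.31 and -0.21 log2 units against these lines. That neither difference changed by more than rounding relative to the median gene therefore follows from the scaling itself. It cannot show which order of the lines holds.

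Epcam had its highest level in IL6Myc-4 as well. The libraries gave 324, 327 and 323 CPM in IL6Myc-1, 237, 238 and 227 in IL6Myc-2, 127, 125 and 125 in IL6Myc-3, 448, 456 and 457 in IL6Myc-4, and 376, 372 and 389.9 in IL6Myc-5. The 5 lines did not overlap, and IL6Myc-3 stood well below the rest. IL6Myc-4, at 454 ± 4.66 CPM, exceeded IL6Myc-3, at 126 ± 1.27, by 1.85 ± 0.033 log2 units (edgeR adjusted p = 1.07e-16), a 3.60-fold difference. The 3 pairs called all had IL6Myc-3 as the lower line. IL6Myc-2 was above IL6Myc-3 by 0.89 ± 0.033 log2 units, short of the size needed for a call.

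**Figure D2:**
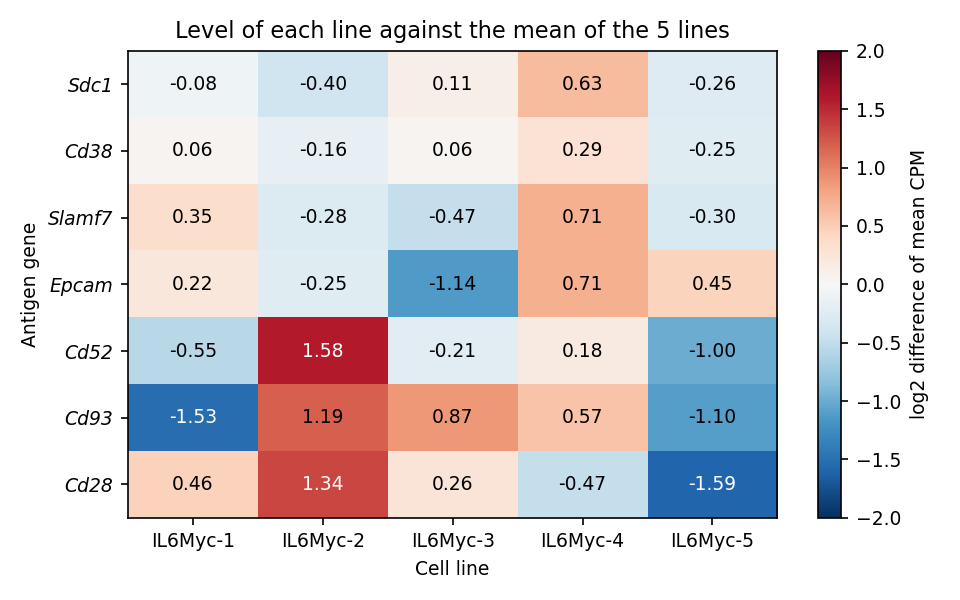
Difference of each line's mean from the mean of the 5 lines, in log2 units, for the 7 members that passed the filter (rows) in the 5 lines (columns). IL6Myc-4 is the highest line for Sdc1, Cd38, Slamf7 and Epcam, and IL6Myc-2 is the highest for Cd52, Cd93 and Cd28.

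Cd52, Cd93 and Cd28 were the members with the widest spread, and for all 3 IL6Myc-2 was the highest line. Cd52, the lipid-anchored lymphocyte antigen, lay at 88.4, 95.8 and 91.0 CPM in IL6Myc-1, 405, 406 and 386 in IL6Myc-2, 114, 118 and 115 in IL6Myc-3, 152, 152 and 151 in IL6Myc-4, and 67.7, 64.7 and 68.5 in IL6Myc-5. The libraries of IL6Myc-2 stood far above the others and no lines overlapped. IL6Myc-2, at 399 ± 11 CPM, was above IL6Myc-5, at 67.0 ± 1.96, by 2.57 ± 0.04 log2 units (edgeR adjusted p = 1.83e-17), or 5.96-fold. It was also above its nearest line, IL6Myc-4, by 1.40 ± 0.038 log2 units (edgeR adjusted p = 1.31e-14). Cd52 was thus called higher in IL6Myc-2 than in each of the 4 other lines, which held for 3.09% of all genes tested. The other pair called among the 5 for Cd52 was IL6Myc-4 above IL6Myc-5, and 89.0% of genes tested had a smaller distance between lines.

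Cd93 split the lines into a group of 3 with high levels and a pair with low levels. It lay at 37.3, 38.1 and 38.0 CPM in IL6Myc-1, 249, 249 and 251 in IL6Myc-2, 200.3, 195 and 206 in IL6Myc-3, 167, 167 and 153 in IL6Myc-4, and 50.4, 51.2 and 51.4 in IL6Myc-5. IL6Myc-2, IL6Myc-3 and IL6Myc-4 were each called above both IL6Myc-1 and IL6Myc-5, which makes up all 6 pairs called. IL6Myc-2, at 249.8 ± 1.05 CPM, was above IL6Myc-1, at 37.8 ± 0.406, by 2.72 ± 0.041 log2 units (edgeR adjusted p = 5.05e-18), or 6.61-fold. The gap between the 2 sets of lines, from IL6Myc-4 at 162 ± 7.83 to IL6Myc-5 at 51.0 ± 0.572 CPM, was 1.67 ± 0.04 log2 units (edgeR adjusted p = 4.46e-15). Within each set the neighbouring lines were 0.31 to 0.43 log2 units apart, past the adjusted p and not called.

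Cd28, the costimulatory receptor, had the largest distance between lines of the 7 members tested. It lay at 121, 114 and 118 CPM in IL6Myc-1, 210.2, 219.7 and 221 in IL6Myc-2, 101, 103 and 103 in IL6Myc-3, 62.0, 63.7 and 59.7 in IL6Myc-4, and 27.7, 30.9 and 26.6 in IL6Myc-5. The lines did not overlap, with IL6Myc-2 at the top and IL6Myc-5 at the bottom. IL6Myc-2, at 217 ± 5.74 CPM, was above IL6Myc-5, at 28.4 ± 2.27, by 2.94 ± 0.051 log2 units (edgeR adjusted p = 5.32e-17), or 7.63-fold. IL6Myc-5 was called lower than each of the 4 other lines, which held for 0.603% of all genes tested, and its nearest line, IL6Myc-4, was above it by 1.13 ± 0.051 log2 units (edgeR adjusted p = 1.49e-11). That share, like the 3.09% given for Cd52, is for a line and direction taken from the member's own values. The share of genes set apart in any line and direction is larger and is not given here. Of the 6 pairs called for Cd28, IL6Myc-2 above IL6Myc-3 by 1.08 log2 units was lost with library totals and no TMM, at 0.77. Of all genes tested, 90.5% had a smaller distance between highest and lowest line.

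**Figure D3:**
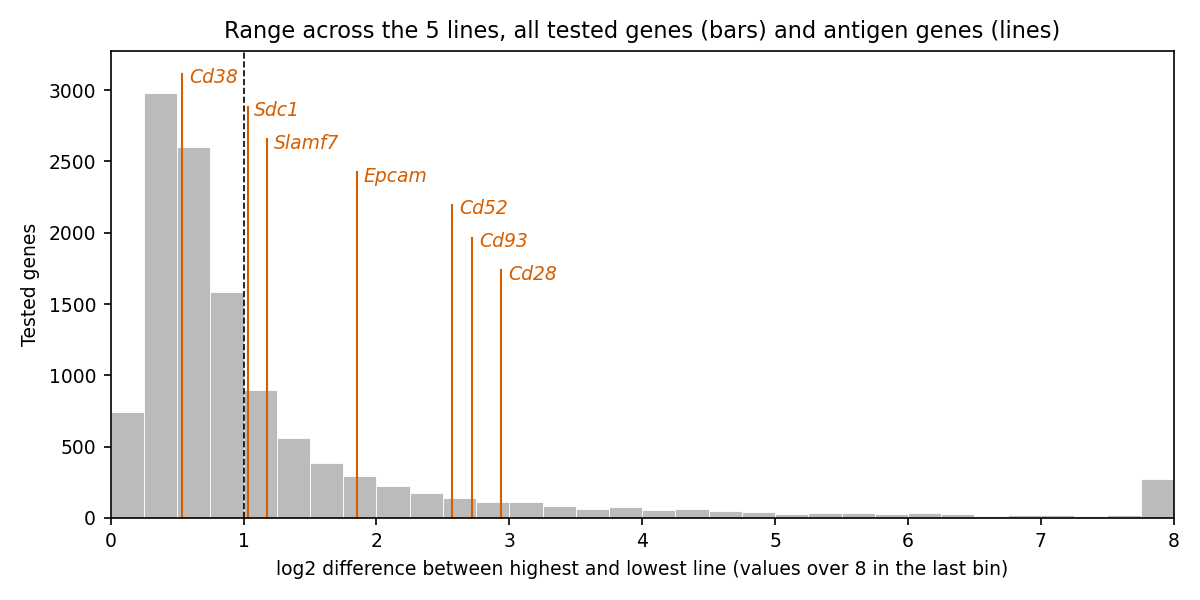
Distance between the highest and the lowest line in log2 units (x axis, values over 8 in the last bin) for the 11773 genes tested, as the number of genes per bin (y axis), with the members marked and a dashed line at 1, the size needed for a call. Cd38 lies below the line, Sdc1 and Slamf7 just above it at 1.03 and 1.18, Epcam at 1.85, and Cd52, Cd93 and Cd28 between 2.57 and 2.94.

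The remaining members were scarcely or not detected. Gprc5d, the orphan G protein-coupled receptor targeted by talquetamab in human myeloma, had 0 counts in each of the 15 libraries. Taking 3 counts as the limit that a count of 0 allows, its level could have been up to 0.0332 CPM in IL6Myc-1, 0.0527 in IL6Myc-2, 0.0366 in IL6Myc-3, 0.0375 in IL6Myc-4 and 0.0426 in IL6Myc-5 over the 3 libraries of a line, counting error only. Fcrl5, the Fc receptor-like protein targeted by cevostamab, was detected at trace level, with 8, 24, 8, 7 and 21 estimated counts over the 3 libraries of IL6Myc-1 to IL6Myc-5.

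Fcrl5 lay at 0.0462, 0.0764 and 0.192 CPM in IL6Myc-1, 0.668, 0.254 and 0.306 in IL6Myc-2, 0.163, 0.0741 and 0.0649 in IL6Myc-3, 0.0714, 0.155 and 0.0384 in IL6Myc-4, and 0.278, 0.212 and 0.379 in IL6Myc-5. The libraries of IL6Myc-2 and IL6Myc-5 overlapped each other and lay above all libraries of the other 3 lines. Fcrl5 did not pass the filter and so has no test among the main results. With no filter on low counts, edgeR gave an IL6Myc-1 minus IL6Myc-2 difference of -2.05 ± 0.76 log2 units (adjusted p = 0.0241), and IL6Myc-2 was likewise called above IL6Myc-3 by 2.0 ± 0.76 (edgeR adjusted p = 0.0315) and above IL6Myc-4 by 2.16 ± 0.77 (edgeR adjusted p = 0.0227). These differences rest on counts of 7 to 24 per line. The highest line mean of Fcrl5 was 0.41 ± 0.226 CPM in IL6Myc-2, or 0.118 ± 0.0648 CPM per kilobase of exon.

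Levels of the members were ranked against each other per kilobase of exon, because a longer transcript collects more reads. Exon length ran from 514 bases for Cd52 to 6677 for Cd93. On this scale Cd52 was the most abundant member in IL6Myc-1 to IL6Myc-4, with means of 178 ± 7.34, 776 ± 21.5, 225 ± 4.2 and 295 ± 1.06 CPM per kilobase. In IL6Myc-5 Epcam came first with 184 ± 4.49 CPM per kilobase, above Cd52 with 130.3 ± 3.81. Epcam had higher means than Sdc1 per kilobase in every line but IL6Myc-3, for example in IL6Myc-1, at 157 ± 0.971 against 113 ± 3.26, and in IL6Myc-4, at 220.0 ± 2.26 against 184 ± 4.80. In IL6Myc-3 Sdc1 was higher, with Sdc1 at 129 ± 3.35 and Epcam at 61.1 ± 0.615 CPM per kilobase. Cd38 lay between 19.9 ± 0.118 in IL6Myc-5 and 28.8 ± 0.377 in IL6Myc-4, and Slamf7 between 20.3 ± 1.16 in IL6Myc-3 and 46.1 ± 1.35 in IL6Myc-4. Cd93 was the least abundant of the 7 expressed members in IL6Myc-1, at 5.66 ± 0.0607 CPM per kilobase. The exon lengths come from another build of the mouse genome than the reads were aligned to, and whether the estimated counts were already adjusted for length is not given in the sources used here.

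**Figure D4:**
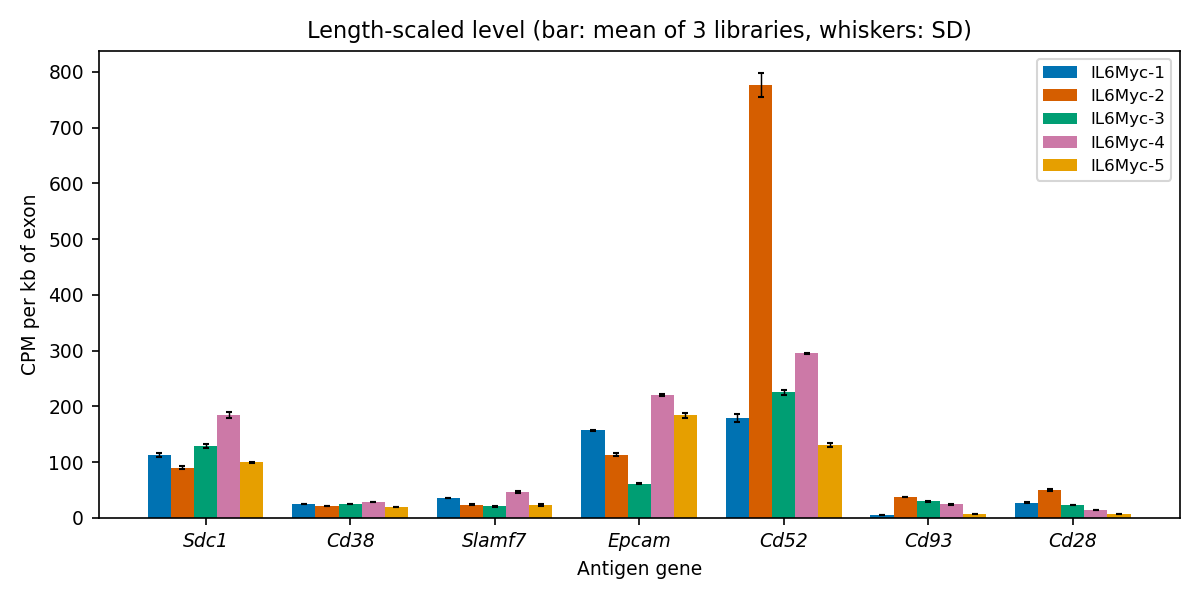
Mean level of the members in CPM per kilobase of exon (bars from 0, one group of bars per gene and one colour per line) for the 7 expressed members, with the SD of the 3 libraries as whiskers. Of each colour, the bar of Cd52 is the tallest for IL6Myc-1 to IL6Myc-4, reaching 776 in IL6Myc-2, and the bar of Epcam is the tallest for IL6Myc-5.

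By line, IL6Myc-4 was the highest for 4 of the 7 expressed members and the lowest for none. IL6Myc-2 was the highest for 3 members and the lowest for Sdc1. IL6Myc-5 was the lowest for Cd38, Cd52 and Cd28, IL6Myc-3 for Slamf7 and Epcam, and IL6Myc-1 for Cd93. The pair of lines with the most members called was IL6Myc-4 and IL6Myc-5, with 4 of 7, against 11.3% of all genes. In 3 pairs 3 members were called: IL6Myc-2 and IL6Myc-4 (14.0% of all genes), IL6Myc-2 and IL6Myc-5 (12.2%), and IL6Myc-3 and IL6Myc-5 (9.86%). In 4 pairs 2 members were called: IL6Myc-1 and IL6Myc-2 (19.0% of all genes), IL6Myc-1 and IL6Myc-3 (11.4%), IL6Myc-2 and IL6Myc-3 (14.0%), and IL6Myc-3 and IL6Myc-4 (11.5%). The pairs with the fewest were IL6Myc-1 with IL6Myc-4 and IL6Myc-1 with IL6Myc-5, with 1 of 7 each, against 15.7% and 14.6% of all genes. No line was therefore low or high for every antigen.

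The other members of each antigen's family and pathway were read from fixed lists, on the same F-test and size rule. Of 23 further antigens proposed as targets in myeloma, 17 passed the filter and 10, or 58.8%, were called, against 32.1% of all genes. The median distance between lines of the 17 was 1.48 log2 units. Cd200, an inhibitory surface ligand, lay at 0.0823 ± 0.061 CPM in IL6Myc-1 and between 5.72 ± 1.47 and 12.3 ± 2.50 in the others. Cd74, the invariant chain of MHC class II, lay at 2696 ± 60.1 CPM in IL6Myc-2 and between 66.0 ± 2.18 and 175 ± 6.89 elsewhere. Ccr10, a chemokine receptor of antibody-secreting cells, lay at 25.6 ± 0.875 CPM in IL6Myc-2 and between 1.86 ± 0.524 and 6.47 ± 0.668 in the others. Like Cd52, Cd93 and Cd28, both Cd74 and Ccr10 had their highest level in IL6Myc-2. Of the other called genes of the list, Itgb7, Cd48, Il6ra and Tfrc were highest in IL6Myc-4, and Tnfrsf17, Cd44 and Sema4a in IL6Myc-1. Cd200 was highest in IL6Myc-5. Tnfrsf17 lay at 47.5 ± 3.50 CPM in IL6Myc-1 and was lowest in IL6Myc-2, at 8.80 ± 0.289. Apart from Cd48 and Cd200, these other genes were named after their values were seen.

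Of 12 B cell surface antigens 7 passed the filter and 6, or 85.7%, were called, against 32.1% of all genes. Ms4a1, which encodes CD20, the target of rituximab, lay at 136 ± 2.68, 92.7 ± 1.45, 54.9 ± 1.33, 173 ± 5.97 and 205 ± 7.31 CPM in IL6Myc-1 to IL6Myc-5. Cd24a, a lipid-anchored glycoprotein like Cd52, lay at 2.85 ± 0.653 CPM in IL6Myc-1 and at 45.1 ± 1.64 to 215 ± 2.25 in the other lines. Cd79b, a signalling chain of the B cell receptor, lay between 167 ± 12.2 CPM in IL6Myc-1 and 564 ± 20.5 in IL6Myc-4. The list also held genes at or near 0, and Cd72 had 0 counts in all libraries.

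Of 10 further SLAM family genes and adaptors 6 passed the filter and 4, or 66.7%, were called, against 32.1% of all genes. Slamf9 lay at 478 ± 16.2 CPM in IL6Myc-4 and between 191 ± 5.17 and 239 ± 11.2 in the other lines. Cd48, the SLAM family ligand of CD244, was also highest in IL6Myc-4, at 74.5 ± 0.666 CPM, and lowest in IL6Myc-5, at 26.3 ± 1.5. Slamf6, a receptor that binds itself, followed another order, with 55.2 ± 0.502 and 51.7 ± 5.93 CPM in IL6Myc-1 and IL6Myc-2 and 12.6 ± 1.42 to 23.0 ± 0.681 in the other 3. Slamf7 thus shared its highest line with Slamf9 and Cd48 but not with Slamf6. Of the 5 Fc receptor-like genes besides Fcrl5, Fcrl1 and Fcrla passed the filter and both were called, against 32.1% of all genes. Fcrl1 lay between 4.32 ± 0.217 CPM in IL6Myc-5 and 21.6 ± 0.965 in IL6Myc-3, and Fcrla between 20.0 ± 1.24 in IL6Myc-1 and 75.0 ± 1.98 in IL6Myc-5. Of the 3 other GPRC5 genes, Gprc5b alone passed the filter and was called, against 32.1% of all genes. It lay at 28.8 ± 4.51 CPM in IL6Myc-2 and 92.6 ± 1.04 in IL6Myc-3.

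For CD28, the list held 14 relatives, ligands and signalling genes, of which 9 passed the filter. Of these, 6, or 66.7%, were called, against 32.1% of all genes. Cd80, which binds CD28, lay at 18.1 ± 1.33 CPM in IL6Myc-2 and between 2.80 ± 0.473 and 9.83 ± 0.728 in the others. Cd86, the other ligand, was at or below 0.248 CPM in every line and did not pass the filter. Ctla4, the inhibitory receptor for the same ligands, lay at 6.76 ± 1.28 CPM in IL6Myc-2 and between 0.801 ± 0.0813 and 1.63 ± 0.464 elsewhere. Icosl, the ligand of the related receptor ICOS, lay at 7.32 ± 0.159 CPM in IL6Myc-2 and between 0.654 ± 0.149 and 1.68 ± 0.268 elsewhere. Cd80, Ctla4 and Icosl, like Cd28, had their highest level in IL6Myc-2, but not every called gene of the list did. Pdcd1, another inhibitory receptor of the family, was called with a wider distance, 4.39 log2 units, and was highest in IL6Myc-1 at 3.16 ± 0.248 CPM against 1.42 ± 0.52 in IL6Myc-2. Of the signalling genes downstream, Pik3cd was called and highest in IL6Myc-2 at 32.1 ± 3.22 CPM, and Lck was called and lowest there at 0.429 ± 0.123. Vav1, Grb2 and Pik3r1 were not called, with distances between lines of 0.61, 0.51 and 0.70 log2 units. Pdcd1 and these 5 signalling genes were named after their values were seen.

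**Figure D5:**
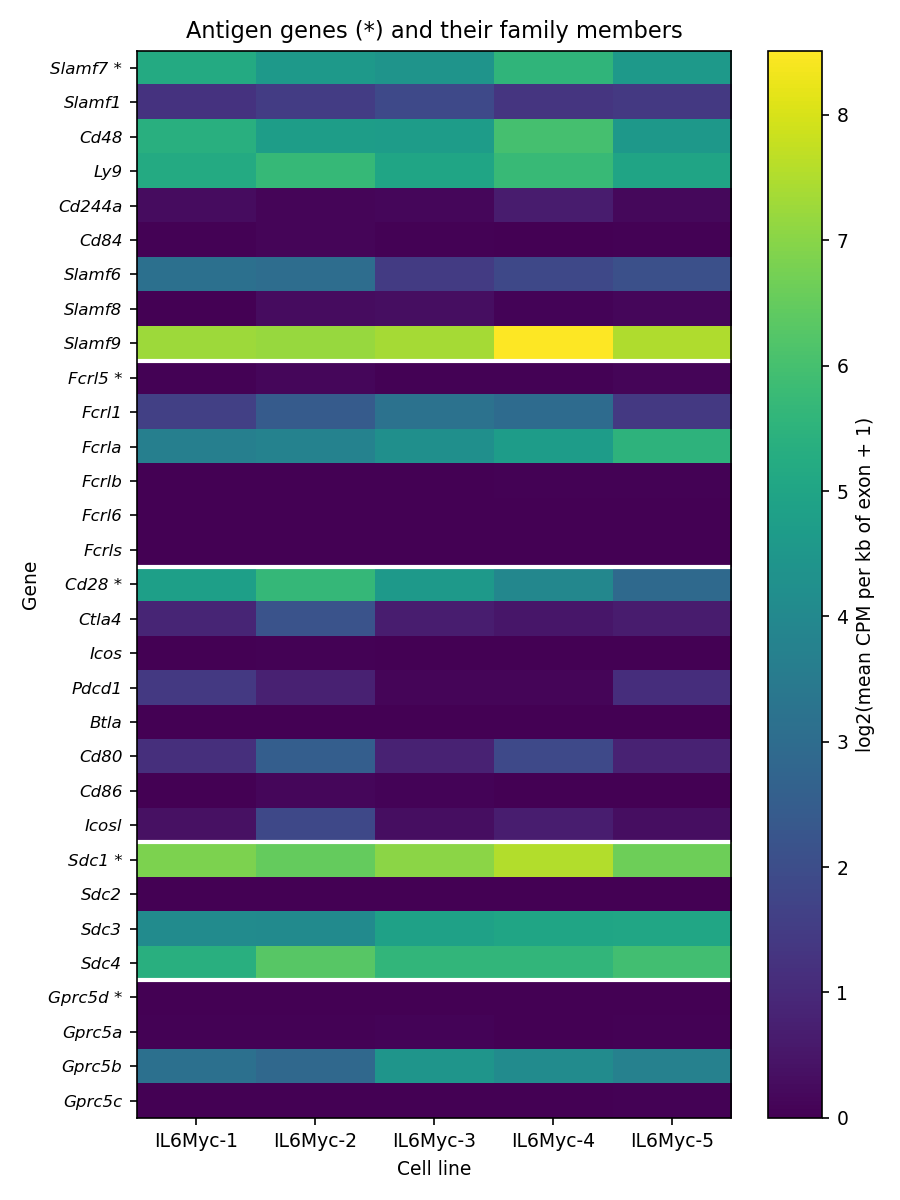
Mean level as log2(CPM per kilobase of exon + 1) of members (marked with an asterisk) and genes of their families in the 5 lines. Within the families, members and relatives do not share 1 order of lines: Slamf9 and Cd48 are highest in IL6Myc-4 with Slamf7, while Slamf6 is highest in IL6Myc-1.

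For syndecan-1, 19 further syndecans and heparan sulfate genes were read, of which 15 passed the filter and 5 were called, or 33.3% against 32.1% of all genes. Hpse, which encodes heparanase, the enzyme that cleaves the sugar chains of syndecans, lay at 41.3 ± 2.11 CPM in IL6Myc-4, the line highest for Sdc1. Among the other lines it ran from 2.62 ± 0.109 in IL6Myc-1 to 8.45 ± 0.843 in IL6Myc-2, the line lowest for Sdc1. The chain-building enzymes Ndst2 and Extl3 were called as well, each highest in IL6Myc-4 at 17.7 ± 1.84 and 37.5 ± 1.56 CPM and lowest in IL6Myc-1 at 7.26 ± 0.773 and 16.7 ± 0.883. The remaining 2 called genes, named after their values were seen, had other orders: Xylt1, the widest of the list at 4.71 log2 units, was highest in IL6Myc-3 at 3.81 ± 0.285 CPM, and Hs6st1 was highest in IL6Myc-2 at 161 ± 1.86. Of 5 further NAD and nucleotide ectoenzymes beside CD38, 3 passed the filter and 1, or 33.3%, was called, against 32.1% of all genes. It was Bst1, the relative of Cd38 that neighbours it on chromosome 5, at 0.223 ± 0.0549 to 3.37 ± 1.85 CPM. Bst1 was named after its values were seen.

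For the lipid anchor that CD52 needs, 13 genes of glycosylphosphatidylinositol synthesis and attachment all passed the filter and 3 were called, or 23.1% against 32.1% of all genes. Pigs, a subunit of the transamidase that attaches the anchor, lay between 156 ± 3.41 CPM in IL6Myc-2 and 403 ± 9.22 in IL6Myc-4. Pigv and Pgap1 lay lowest in IL6Myc-2, at 2.76 ± 1.47 and 22.7 ± 0.369 CPM, and highest in IL6Myc-1, at 6.22 ± 0.201 and 46.0 ± 2.88. These 3 were lowest in the line in which Cd52 was highest, while Pigl and Pgap2, not called and named after their values were seen, had their highest means there, at 17.8 ± 0.852 and 25.05 ± 1.35 CPM, and the summed level of the list was lowest in IL6Myc-5. Surface complement regulators, which limit killing of antibody-coated cells by complement, gave 3 called of 6. Cd55 lay at 6.53 ± 0.42 CPM in IL6Myc-1 and 0.123 ± 0.107 in IL6Myc-4, its copy Cd55b at 5.92 ± 0.684 and 0.137 ± 0.0959, and Cd59a at 33.5 ± 1.89 in IL6Myc-4 against 59.9 ± 1.56 to 80.5 ± 4.70 in the others. Reads of Cd55 and Cd55b, near-identical copies, may have been split between them in the counting. The 3 called genes were lowest in IL6Myc-4, but the list as a whole was not: Cr1l was not called and had its highest mean in IL6Myc-4 at 186 ± 6.49 CPM, and the summed level in the libraries of IL6Myc-4, 222 to 235 CPM, lay above that of IL6Myc-5, 203 to 209.

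Of 7 relatives and ligands of CD93, 2 passed the filter. None was called by edgeR or DESeq2, against 32.1% of all genes by edgeR. Both, Msn and Gipc1, had an unadjusted p under 0.05 but distances of only 0.28 and 0.80 log2 units between lines. Of 8 partners and relatives of EpCAM, 4 passed and 1 was called, Psen2, a subunit of the protease that cleaves EpCAM, at 21.3 ± 0.427 CPM in IL6Myc-3 and 57.3 ± 1.04 in IL6Myc-2.

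Cd28, Cd93 and Epcam are best known from T cells, from endothelial and myeloid cells, and from epithelia, so markers of those cells were read beside them. Of 9 T cell markers 8 were in the table and 4 passed the filter, all 4 called, against 32.1% of all genes. Their summed level was 48.2 to 54.3 CPM in the libraries of IL6Myc-1, 64.9 to 72.7 in IL6Myc-2, 29.5 to 30.3 in IL6Myc-3, 109 to 111 in IL6Myc-4 and 24.1 to 26.9 in IL6Myc-5. Cd2 took the largest part of these counts, at 22.6 ± 2.08 to 81.3 ± 0.726 CPM, with Cd3g up to 22.0 ± 0.469 in IL6Myc-4 and Cd3d up to 7.6 ± 1.02 in IL6Myc-2. The T cell receptor chain Trbc2 had 0 counts in every library, Cd3e stayed at or below 0.0488 CPM and Cd8a at or below 0.0518.

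Of 7 myeloid markers 3 passed the filter and all 3 were called, against 32.1% of all genes. The summed levels of the list were 116 to 122, 209 to 220.4, 64.4 to 70.8, 186 to 194 and 74.3 to 78.7 CPM in the libraries of IL6Myc-1 to IL6Myc-5. Cd68, a lysosomal protein, took the largest part of these counts at 62.2 ± 2.30 to 201 ± 6.17 CPM, and Itgam lay at 11.6 ± 0.226 CPM in IL6Myc-2 and at 3.65 ± 0.378 or less elsewhere. Both were highest in IL6Myc-2, the line highest for Cd93, whereas Mpo, the third called marker, was lowest there at 0.307 ± 0.108 CPM and reached 1.37 ± 0.435 in IL6Myc-1, the line lowest for Cd93. Cd68 was lowest in IL6Myc-3, at 62.2 ± 2.30 CPM, where Cd93 was high at 201 ± 5.64 CPM. Lyz2 was at or below 0.0244 CPM and Csf1r at or below 0.559. Of 7 endothelial markers 2 passed the filter and neither was called by edgeR or DESeq2, 1 of them having an unadjusted p under 0.05, with Pecam1 at 14.3 ± 0.397 to 26.3 ± 0.565 CPM, with summed levels of 16.5 to 30.1 CPM over all libraries. Cdh5, Kdr and Emcn, which mark endothelium, had 0 counts throughout.

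Of 7 epithelial markers 4 passed the filter and 3, or 75.0%, were called, against 32.1% of all genes. The summed levels of the list ran from 8.93 CPM in IL6Myc-1 to 28.0 in IL6Myc-5. Krt18, a keratin, lay at 0.211 ± 0.198 CPM in IL6Myc-1 and between 9.50 ± 0.425 and 17.4 ± 1.55 in the others, and the splicing regulator Esrp1 between 0.619 ± 0.201 and 5.01 ± 0.605. Cldn4 lay between 3.84 ± 0.253 and 7.55 ± 0.676 CPM and was not called. E-cadherin, Cdh1, was at or below 0.0851 CPM and Krt19 at or below 0.0354. No stromal marker of 6 passed the filter. The part of other cells in the levels of Cd68, Itgam and Cd2 was not tested.

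For each expressed member the genes with the most alike profile over the 15 libraries are given by Pearson's r of log2(CPM + 1) as a description; the 15 points come from only 5 lines, so they share their source. Sdc1 was most like Scpep1, Tpp1 and Atraid, with r of 0.985, 0.983 and 0.983, the first 2 encoding a serine carboxypeptidase and a lysosomal peptidase. Cd38 was most like Maml2, Filip1 and Kcnn4 at 0.975, 0.971 and 0.970, and Slamf7 was most like Cnnm3, Inpp5a and Fam177a at 0.978, 0.966 and 0.965. Cd52 was most like Il2rg, the common cytokine receptor chain, at 0.988, then Ddt and Lcp1 at 0.981 each. Il2rg lay at 190.1 CPM in IL6Myc-2 and between 23.0 and 76.2 elsewhere, in the same order of lines as Cd52.

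Cd93 was most like Pik3cb, a phosphoinositide kinase subunit, at 0.994, and Kdm5d and Csf2rb2 at 0.991 each. Kdm5d, a Y-linked histone demethylase gene, lay at 1.40 CPM in IL6Myc-1 and 1.79 in IL6Myc-5, the lines low for Cd93, and at 13.7 to 23.1 in the other 3. Pik3cb lay at 0.00769 and 0.45 CPM in the same low lines and at 6.69 to 10.5 in the others. Cd28 was most like Lrfn3, Esrp1 and Nudt12 at 0.986, 0.963 and 0.952. Epcam was most like Ms4a1, Add1 and Nes at 0.965, 0.958 and 0.949; the first of these was the lowest leading r among the 7 members. The number of tested genes with r of at least 0.95 ran from 2 for Epcam to 31 for Cd52.

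The members lie on 8 chromosomes, with Slamf7 and Cd28 both on chromosome 1, and 5 protein-coding genes were read on each side of the 7 expressed members. The SLAM genes lie side by side, and of the 10 neighbours of Slamf7, 7 were tested and 3 were called higher in IL6Myc-4 than in IL6Myc-3, the highest and lowest lines for Slamf7: F11r by 1.62, Cd244a by 2.38 and Cd48 by 1.31 log2 units. Of all genes, 11.5% were called between these lines in either direction. F11r was not in the SLAM list. Ly9 and Slamf6 were 0.74 and 0.54 log2 units higher in IL6Myc-4 and were not called, and the IL6Myc-4 minus IL6Myc-3 difference of Slamf1 was -0.86, also not called. Beside Cd28, Ctla4 was called higher in IL6Myc-2 than in IL6Myc-5 by 2.60 log2 units and the same difference was -1.76 for Nrp2, called in the opposite direction. Between IL6Myc-2 and IL6Myc-5, 12.2% of all genes were called. None of the 6 tested neighbours of Sdc1 or the 7 of Epcam was called over the 5 lines by edgeR or DESeq2, against 32.1% of all genes by edgeR. In each set 6 had an unadjusted p under 0.05 in edgeR, but no line differed from another by more than 0.72 and 0.78 log2 units. Of the 6 tested neighbours of Cd52, 3 were called over the 5 lines, against 32.1% of all genes. Between IL6Myc-2 and IL6Myc-5, the highest and lowest lines for Cd52, edgeR and DESeq2 called none of the 6 and 3 had an unadjusted p under 0.05 in edgeR, the widest being Hmgn2 with an IL6Myc-2 minus IL6Myc-5 difference of -0.97 log2 units. Beside Cd93, Napb was called with an IL6Myc-2 minus IL6Myc-1 difference of -1.48 log2 units, and beside Cd38, Bst1 with an IL6Myc-4 minus IL6Myc-5 difference of -1.46. Of all genes, 19.0% were called between IL6Myc-1 and IL6Myc-2 and 11.3% between IL6Myc-4 and IL6Myc-5.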

How the data were processed

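Total RNA of 15 libraries, 3 technical replicates of each of 5 cell lines, was made into stranded total RNA libraries and sequenced, per the labels' protocols. The submitters' processing notes name Trim Galore 0.4.0, DESeq2 and the build GRCm39; no source used here names the aligner, the counting tool or its use of strand. The table the authors deposited is named for TPM, but its values are estimated counts per gene name: totals ran from 19068543 to 41165599 per library, and 30.8% to 54.3% of the values above 0 and under 1.5 lay within 0.02 of 1. The values deposited by the authors were rounded to whole counts here. Of 32434 entries 99.2% matched a mouse symbol.

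The 11773 genes that reached 1 CPM in 3 or more libraries were fitted with edgeR 4.0.16 in R 4.3.3 with TMM scaling and the quasi-likelihood test, with the line as the only factor and all 15 libraries in 1 fit. P-values were adjusted by the Benjamini-Hochberg method over all genes tested, by an F-test over the lines and for each of the 10 pairs of lines. Calls need an adjusted p under 0.05 and at least 1 log2 unit. Standard errors are the log2 difference divided by the square root of its F. DESeq2 1.42.0, limma 3.58.1, other scalings, other filters and leaving out each library were tried as alternatives. Replicates of a line differed by more than sampling noise, and no 2 libraries were identical.

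The members and the gene lists were chosen with earlier results of these data known. Named genes are the members, up to 3 called genes per list with the largest distance between lines (at least 1 CPM in the lowest or 5 CPM in the highest line), Xbp1, Irf4, Prdm1 and Jchain, the 3 genes of highest r per expressed member, and markers of other cells at 5 CPM or more; other genes, including those at or near 0 and the neighbours, were named after their values were seen. Exon lengths and neighbouring genes come from GENCODE M21 (GRCm38), so no gene coordinates are given beyond those of the RefSeq windows. One further target antigen and one T cell marker of the lists were not analysed here.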

Additional observations from a re-analysis of the deposited data

How the results depend on the processing

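Under 7 alternatives and with each of the 15 libraries left out in turn, 242 values were compared, of which 241 were graded as unchanged. The log2 distances between highest and lowest line all kept their direction and their side of the threshold. Counts have neither, and those graded as unchanged still moved. With no filter, 5438 of 21140 genes and 69 list genes were called, against 3783 of 11773 and 57. The value graded as moved was the number of genes differing among the lines. It became 2449 of 9932 with the filter at 5 CPM, where fewer genes are tested. Apart from those distances, comparisons between 2 lines entered only as a count. Leaving out 1 library gave 3650 to 3784 genes, 6 members each time, 22 to 24 called member comparisons between 2 lines and 56 to 58 called list genes. The distance between highest and lowest line then ran from 1.01 to 1.05 log2 units for Sdc1, 0.53 to 0.55 for Cd38, 1.14 to 1.22 for Slamf7, 2.55 to 2.60 for Cd52, 2.71 to 2.73 for Cd93, 2.89 to 3.0 for Cd28 and 1.84 to 1.86 for Epcam. Replicate numbers did not pair the libraries: 1 of 30 pairs with the same number had deviations correlated over 0.1, and 7 of 15 libraries correlated best with their own number. A replicate block gave 3785 genes and left 6 members and 23 member comparisons called.

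Library totals without TMM, an alternative chosen after seeing the data, moved the median gene of IL6Myc-2 by -0.21 to -0.32 log2 units against the other lines. With that shift the calls for Cd28 between IL6Myc-2 and IL6Myc-3 (1.08 to 0.77) and for Slamf7 and Epcam between IL6Myc-2 and IL6Myc-4 (0.99 to 1.31 and 0.96 to 1.28, both higher in IL6Myc-4) crossed the size threshold. Sdc1 between IL6Myc-4 and IL6Myc-5 crossed it too (0.89 to 1.01), with a median shift of 0.11 for that pair. The sign turned in 3 of 70 member comparisons, all under 0.2 log2 units. Between the lines that were highest and lowest with TMM, the distance became 1.36 log2 units for Sdc1, 0.65 for Cd38 and 1.19 for Slamf7. For Cd52, Cd93, Cd28 and Epcam that distance became 2.36, 2.43, 2.73 and 1.86. The Slamf7 difference between IL6Myc-2 and IL6Myc-4 reached 1.0 with no filter, and 1.0 and 1.01 without the third replicate of IL6Myc-2 or of IL6Myc-4. With no filter 7 members and 27 member comparisons were called, Fcrl5 being the added member. Depth limits Gprc5d and Fcrl5, whose counts were 0 and 7 to 24 per line.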

Other observations

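Among the further antigens proposed as targets, called genes beside the 3 of largest distance included the transferrin receptor Tfrc, which brings iron into the cell, at 960.0 ± 38.8 CPM in IL6Myc-4 and 229.7 ± 4.24 in IL6Myc-2 (SD, n = 3). The interleukin-6 receptor chain Il6ra lay at 48.2 ± 4.22 CPM in IL6Myc-4 and between 13.5 ± 0.464 and 21.5 ± 1.59 in the other lines. The hyaluronan receptor Cd44 lay at 1046 ± 12.3 CPM in IL6Myc-1 and between 510.4 ± 19.9 and 597 ± 7.59 in the others. Tfrc and Il6ra thus shared the highest line of Sdc1, Cd38, Slamf7 and Epcam, and Cd44 did not. Tnfrsf13b, which encodes the receptor TACI, and Cd47, which inhibits uptake by macrophages, were not called, with line means of 137 ± 0.414 to 184 ± 4.44 and 81.0 ± 2.04 to 129 ± 2.02 CPM. These 5 genes were named after their values were seen.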
